A study of Homo sapiens with 10 samples.

Results

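A set of 36 genes that p53 is known to switch on directly was followed in HCT116 cells, which carry wild-type p53. The genes were chosen by symbol: every entry of the deposited expression tables whose gene name equals one of the 36 symbols was taken, and its transcripts were summed per gene. Of the 36 genes, 34 stood in at least 1 table, among 18034 genes listed in the series. EDA2R and SPATA18 were in none of the tables, and TRIM22 was listed in the knockdown tables only.

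p53 is a transcription factor that is held at a low level by the ubiquitin ligase MDM2 and accumulates after DNA damage, such as the double-strand breaks named in the title of the series. It binds response elements made of 2 half-sites and raises genes for cell cycle arrest (CDKN1A, which encodes p21), DNA repair, metabolism and cell death, and it also raises MDM2, its own inhibitor. In colon epithelium this response limits the growth of cells with damaged DNA.

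The study sequenced mRNA of HCT116, an established line of human colorectal carcinoma cells, in 10 libraries that form 5 groups of 2. In the inhibitor experiment, cells of control genotype received DMSO, the solvent, or EPZ-5676 (EPZ below) at 10 µM for 72 h, a compound that blocks DOT1L, the methyltransferase of histone H3 lysine 79. In the knockdown experiment, all 3 groups carried an shRNA against CDK9, the kinase within P-TEFb that releases paused RNA polymerase II, and received no drug according to their treatment label, although the protocol text with the EPZ-5676 dose is attached to every sample. Those groups are named EV, a name the labels do not expand, WT, with wild-type CDK9 put back, and K56A, with CDK9 whose lysine 56 is changed to alanine put back. The labels say neither which promoter drives the added CDK9, nor whether the knockdown lines are clones or pools, nor whether the 2 libraries of a group come from separate cultures, and the p-values therefore describe only how far these libraries spread, which may be technical.

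Values are FPKM, that is fragments counted per kilobase of a transcript, made relative to the size of the library. Where a group has a pair of values, replicate 1 comes first. The tables give no read counts, so the depth of the libraries is not known. Transcripts above 0 numbered 54216 to 59913 per library in the inhibitor table, with DMSO replicate 1 lowest, and 68188 to 71332 in the knockdown tables. CDK9 stood at 37.6 to 43.9 FPKM over the 4 libraries of the inhibitor experiment, at 16.4 and 19.5 with EV, at 3060 and 2976 with WT and at 2611 and 2500.3 with K56A. DOT1L ranged from 10.3 to 12.6 FPKM in the inhibitor experiment, against 324 and 343 with EV, 578 and 568 with WT and 733 and 703 with K56A, and the part of DOT1L in the values below was not tested. Of 10 markers of colorectal epithelium 8 were listed, all of them at a mean of 1 FPKM or more, and VIL1 and CEACAM5 were not listed. Markers of blood cells summed to at most 0.826 FPKM and those of endothelium to at most 0.618, and those of fibroblasts to 19.4 to 23.2 FPKM in the inhibitor experiment and 27.6 to 36.3 in the knockdown experiment, nearly all of it COL1A1, the only one of the 6 above 1 FPKM. Its part in the results below was not tested. In bulk RNA, fewer cells making a transcript and less of it per cell cannot be told apart.

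Most p53 target genes were well expressed without the inhibitor. In DMSO, 23 of the 33 listed members stood at 10 FPKM or more in each library, and all 33 at 1 FPKM or more. SAT1, which encodes the enzyme that acetylates spermidine and spermine, had the highest level of the set in all 10 libraries (193 to 512 FPKM). CDKN1A followed in DMSO at a mean of 134 ± 14.3 FPKM (SD, n = 2), PLK2 at 101 ± 8.35 and GDF15 at 73.0 ± 3.47. The lowest listed members in DMSO were ZMAT3 at 3.24 ± 0.212 FPKM and PANK1 at 3.86 ± 0.110, and TRIM22 stood at 0.832 to 1.17 FPKM in the knockdown libraries. The higher replicate exceeded the lower by a median of 1.13-fold over members in DMSO, 1.15-fold in EPZ, 1.07-fold in EV, 1.06-fold in WT and 1.03-fold in K56A. The widest gap between replicates was 1.54-fold, for PHLDA3 under DMSO.

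**Figure D1:**
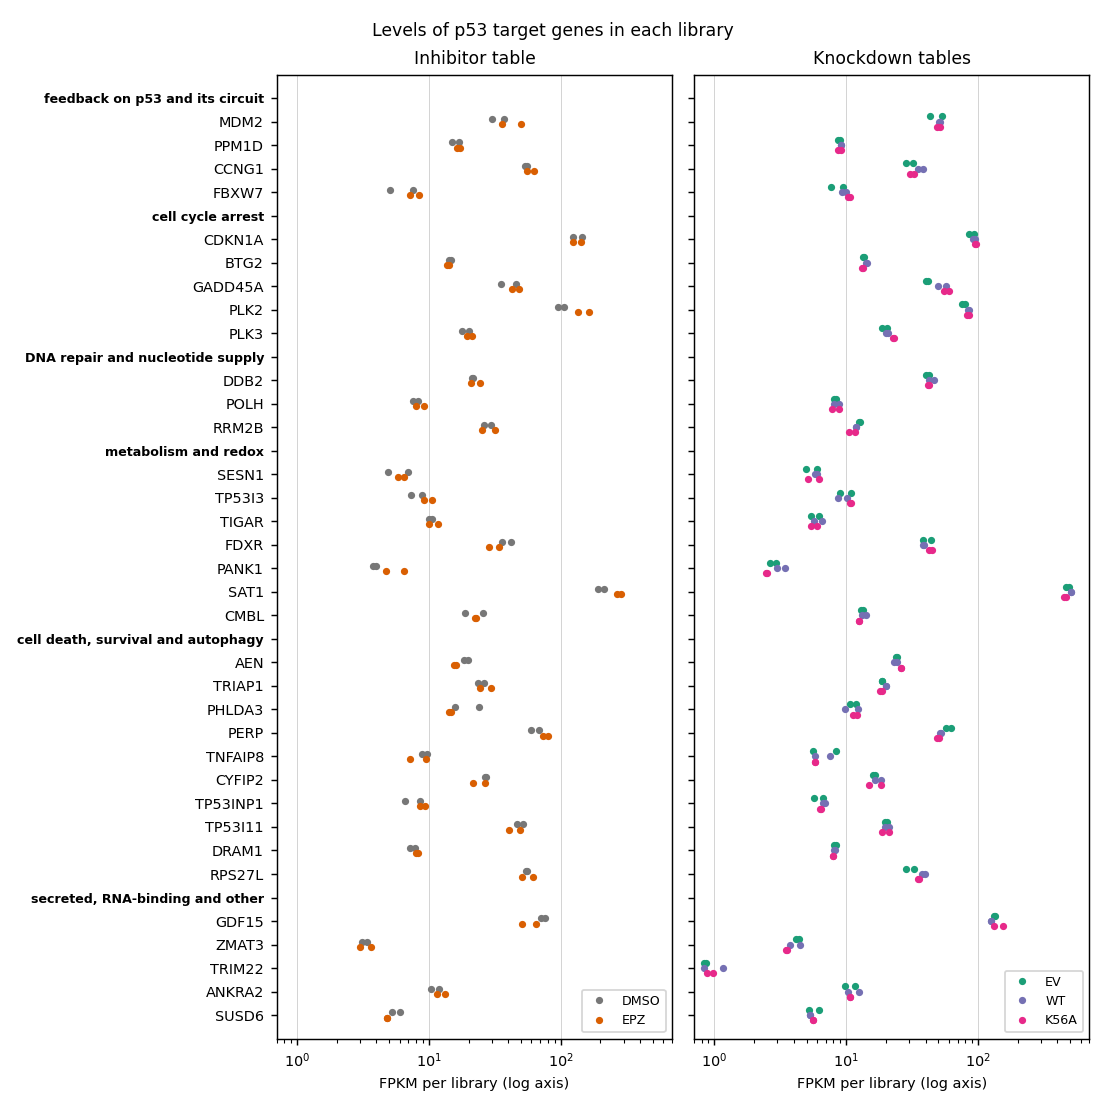
Levels of the 34 listed p53 target genes in each library, grouped by role, in FPKM on a log axis, with 1 point per library (inhibitor experiment left, knockdown experiment right). The points of different groups lie close together for most genes. SAT1 is the highest gene in both panels, and TRIM22, listed in the knockdown tables only, is the lowest.

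The promoters of these genes were searched for the letters of the p53 response element, because the set is defined by that factor. RefSeq promoter windows (GRCh38.p14, 250 bases before to 50 after a start) were at hand for 30 members and numbered 49. TP53INP1, TRIM22, GADD45A, PHLDA3, CMBL and RRM2B had no entry. A match was a pair of half-sites of the published p53 consensus with at most 2 departures and at most 1 base between them, read on both strands, which are equivalent because the consensus is its own reverse complement. Such a match stood in 5 of the 49 windows (10.2%), against 187 of all 35116 windows (0.533%). The 5 windows belong to 4 genes, shown here 5′ to 3′ on the strand of the gene, with capitals for the core of each half-site (a C, 2 bases and a G in the consensus, departures included).
MDM2, chr12:68808923-68808942, plus strand: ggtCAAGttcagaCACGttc
DDB2, chr11:47214979-47214999, plus strand: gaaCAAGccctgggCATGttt
AEN, chr15:88621306-88621325, plus strand: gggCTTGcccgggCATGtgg
PANK1, chr10:89645256-89645275, minus strand: gggCAGGactgggCATGctc
The DDB2 sequence had no departure from the consensus and 1 base between its half-sites, and the other 3 had 2 departures and none between. The first base lay at -94 from the start for MDM2, -34 for AEN, -33 for PANK1 and +5 for DDB2. A match describes letters in the window, and a window without one says nothing about p53 elsewhere at the gene.

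After 72 h of EPZ, no p53 target gene passed the test against DMSO. Genes were tested with limma on log2(FPKM + 0.5) over all genes with at least 1 FPKM in at least 2 libraries, and a gene passed at a Benjamini-Hochberg adjusted p under 0.05. Of the 33 members tested, 0 rose and 0 fell, where 0.0% of all 13130 genes rose and 0.00762% (1 gene) fell. An unadjusted p under 0.05 was reached by 4 members, 3 of them higher in EPZ and 1 lower, where 5.83% of all genes reached it. The median log2 fold change was 0.07 over members and 0.00 over all genes, with 23 members above 0 and 10 below (50.5% of all genes were above 0), and single members ranged from -0.43 (PHLDA3) to 0.56 (PLK2). That median rested on single libraries. Leaving out DMSO replicate 1 gave 0.03 and leaving out EPZ replicate 2 gave 0.02, each with 17 of 33 members above 0. Leaving out DMSO replicate 2 gave 0.14 and EPZ replicate 1 gave 0.16, and protein coding transcripts alone gave 0.03. Both EPZ libraries lay above both DMSO libraries for 8 members and below them for 7, where 18.6% and 18.8% of all genes did so. With DMSO replicate 2 left out, 5 members passed (FBXW7, MDM2, PHLDA3, PLK2 and SAT1), as did 912 higher and 648 lower genes among all, while 0 members passed with DMSO replicate 1 or either EPZ library left out.

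In the knockdown experiment 28 members were tested, and 1 passed. The other listed members were TRIM22, below the level filter, and CYFIP2, PANK1, PLK3, PHLDA3 and TP53I11, for which over 5% of FPKM lay in transcripts listed in only 1 of the 2 knockdown tables. With those 5 kept, none of them passed in any of the 3 comparisons. In WT against EV, 0 of 28 members rose and 0 fell, where 0.0778% of all 11566 genes rose and 0.458% fell. An unadjusted p under 0.05 was reached by 6 members, 5 of them higher in WT, where 13.5% of all genes reached it. Both WT libraries lay above both EV libraries for 8 members and below for 3, where 22.6% and 20.9% of all genes did so. The median log2 fold change was 0.06 over members and 0.01 over all genes, 18 members were above 0 (52.6% of all genes were), and values ran from -0.20 (PERP) to 0.37 (GADD45A). The members' median was 0.02 without EV replicate 2 and 0.03 over protein coding transcripts.

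In K56A against EV, GADD45A rose and 0 of the 28 members fell, where 0.19% of all genes rose (22) and 0.597% fell (69). After median ratio rescaling of the libraries that split of all genes was 15 and 94. An unadjusted p under 0.05 was reached by 6 members, 4 of them higher in K56A, where 15.1% of all genes reached it. Both K56A libraries lay above both EV libraries for 6 members and below for 6, where 27.6% and 17.9% of all genes did so. The median log2 fold change over members was 0.02 (0.03 over all genes), and it was -0.0015 after median ratio rescaling, -0.02 without EV replicate 2, 0.05 without EV replicate 1, -0.0020 without K56A replicate 1, 0.04 without K56A replicate 2 and -0.0055 over protein coding transcripts. Mitochondrial transcripts held 25.3% and 25.5% of FPKM in K56A and 27.9% and 27.5% in EV. After rescaling without mitochondrial genes the median was 0.0020 over members and 0.0096 over all genes. With the deposited scaling 16 members were above 0 (57.7% of all genes were), and values ran from -0.26 (PERP) to 0.48 (GADD45A).

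K56A against WT, which sets mutant beside wild-type CDK9, gave 0 of 28 members that rose and 0 that fell. Among all genes 0.0173% rose and 0.0432% fell. DOT1L was higher in K56A than in WT (log2 fold change of 0.32, adjusted p = 0.0397). CDK9 itself stood lower in K56A without passing (-0.24, adjusted p = 0.22). The form of CDK9 cannot be told apart from these levels. An unadjusted p under 0.05 was reached by 5 members, 3 of them higher in K56A, where 13.0% of all genes reached it. Both K56A libraries lay above both WT libraries for 6 members and below for 12, where 26.0% and 19.5% of all genes did so. The median log2 fold change was -0.06 over members and 0.01 over all genes, with 8 members above 0 and 20 below (54.5% of all genes were above 0), from -0.20 (CCNG1) to 0.20 (GDF15). The members' median was -0.04 without WT replicate 2 and likewise without K56A replicate 2. WT against EV and K56A against EV share the EV libraries, and K56A against WT shares libraries with both.

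**Figure D2:**
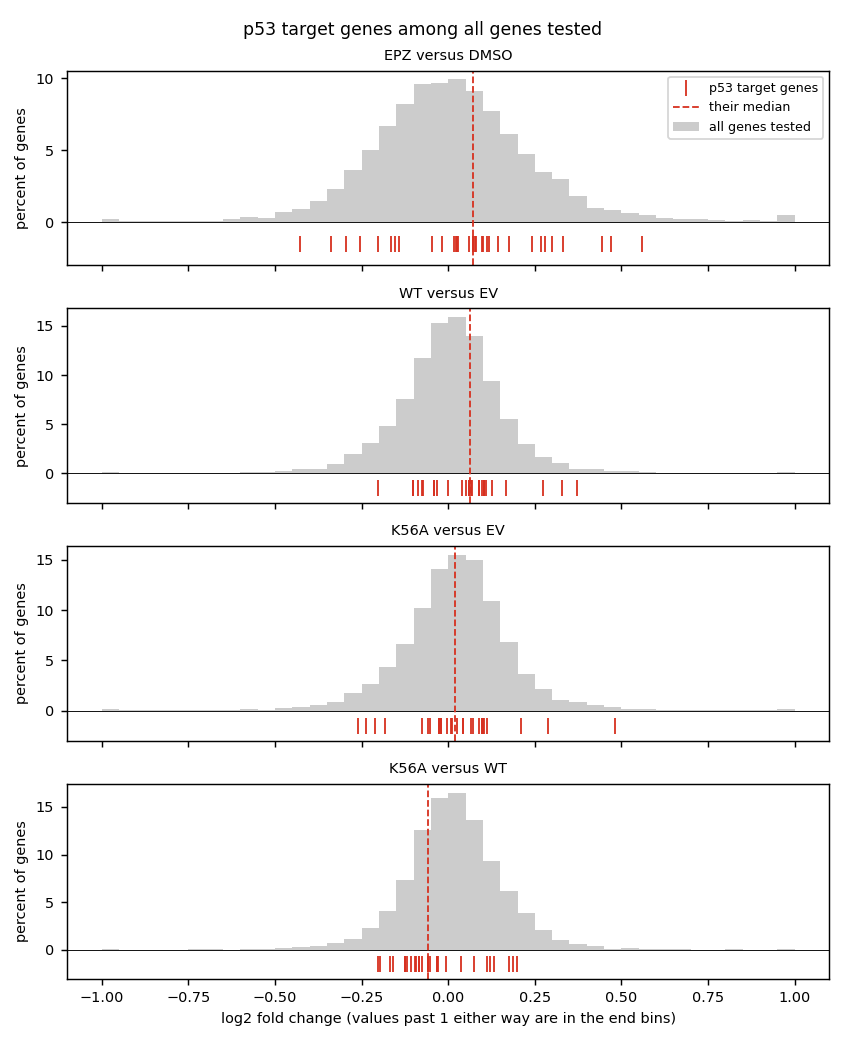
Log2 fold changes of the p53 target genes (red ticks, with their median as a dashed line) below the histogram of all genes tested (grey, in percent of genes), for each comparison. The members lie among the grey bars in all 4 panels, and the medians lie between -0.06 and 0.07.

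**Figure D3:**
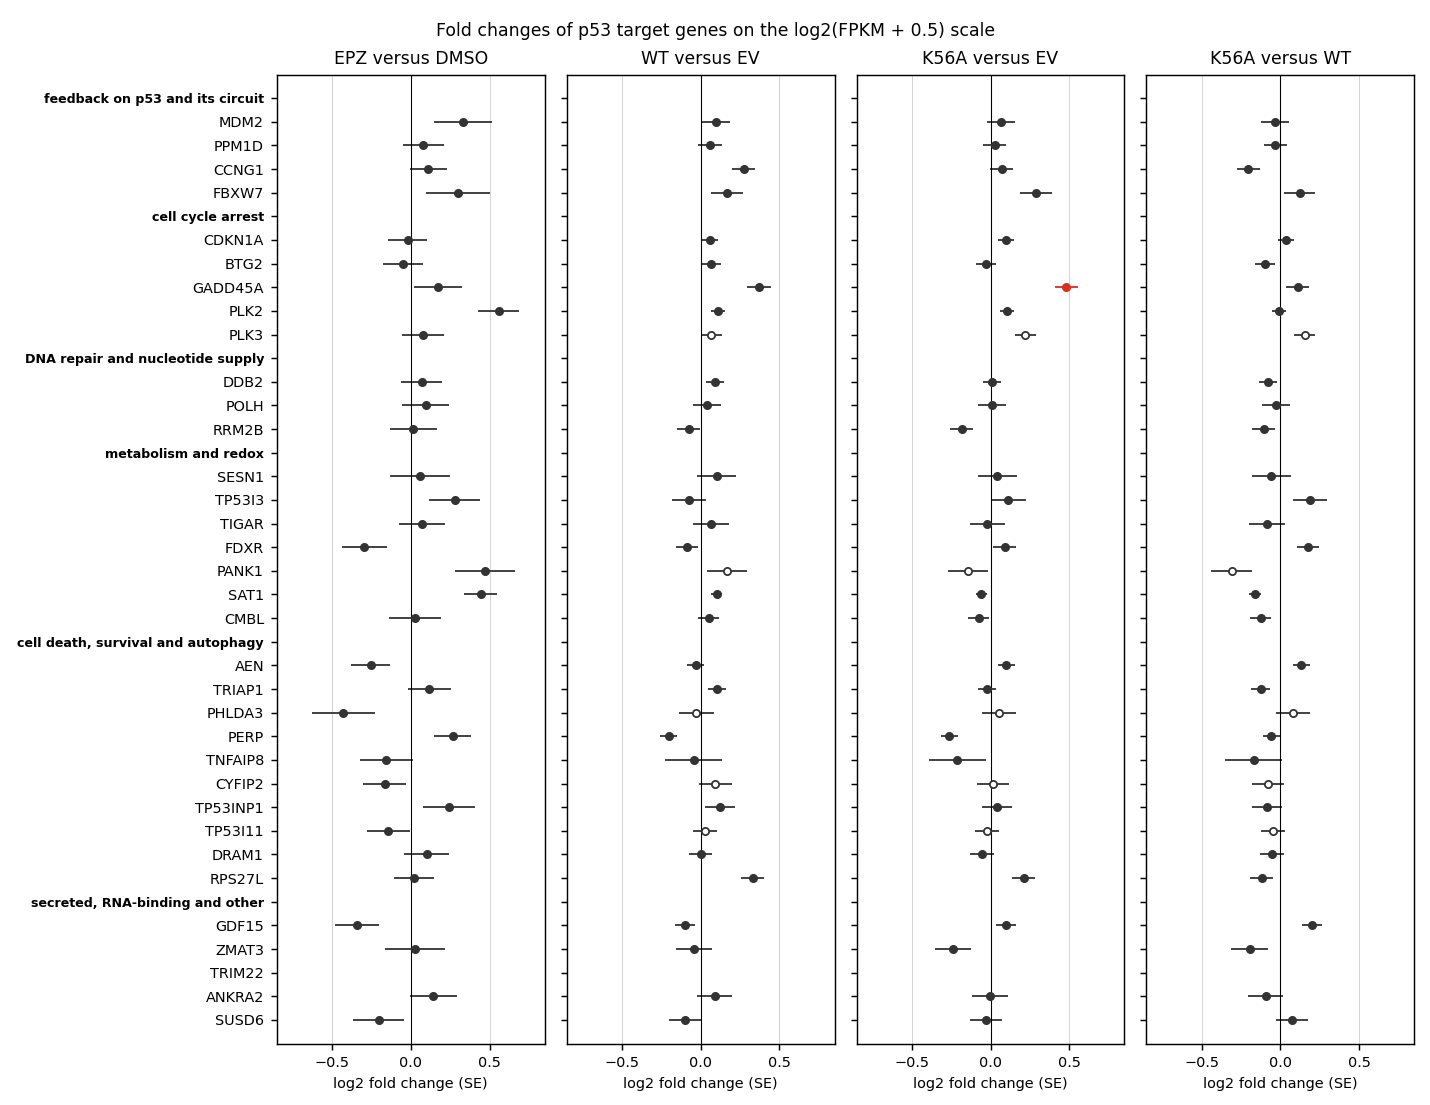
Log2 fold changes of the p53 target genes on the log2(FPKM + 0.5) scale in the 4 comparisons, by role, as points with standard errors. Red marks the only member that passed, GADD45A in K56A versus EV at 0.48, and open circles are the 5 members left out of the knockdown fit, taken from a fit that kept all genes.

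Among the genes that act back on p53, none passed in any comparison. MDM2 (ENSG00000135679, chromosome 12, 68808177 to 68850686, GRCh38), the ubiquitin ligase that marks p53 for destruction, stood at 30.2 and 37.3 FPKM under DMSO, 35.7 and 50.3 under EPZ, 53.3 and 43.1 with EV, 51.9 and 50.8 with WT, and 51.4 and 49.0 with K56A. EPZ replicate 2 was the highest of its experiment, EPZ replicate 1 lay between the DMSO libraries, and EV replicate 2 was the lowest knockdown library. The log2 fold change of MDM2 was 0.33 ± 0.18 (SE) in EPZ (adjusted p = 0.756), 0.10 ± 0.09 with WT and 0.07 ± 0.09 with K56A (adjusted p = 0.697 and 0.783 against EV). The value in EPZ ran from 0.09, with EPZ replicate 2 left out, to 0.58, with EPZ replicate 1 left out, and leaving out DMSO replicate 1 gave 0.18. CCNG1, which encodes cyclin G1, a partner of the phosphatase PP2A that acts on MDM2, stood at 28.5 and 32.0 FPKM with EV, 38.1 and 35.3 with WT and 30.7 and 32.9 with K56A, and at 53.7 and 55.97 under DMSO and 55.97 and 62.8 under EPZ. Both WT libraries were above all EV and K56A libraries. The difference was 0.27 ± 0.07 for WT against EV (adjusted p = 0.159) and -0.20 ± 0.07 for K56A against WT (adjusted p = 0.298). Over protein coding transcripts alone these were 0.10 (adjusted p = 0.580) and -0.10 (0.637). FBXW7, the substrate receptor of an SCF ubiquitin ligase, stood at 7.69 and 9.40 FPKM with EV, 9.90 and 9.33 with WT and 10.6 and 10.4 with K56A, with 5.10 and 7.55 under DMSO and 7.18 and 8.38 under EPZ. The K56A libraries were above both EV libraries, by 0.29 ± 0.10 on the log2 scale (adjusted p = 0.247), but by 0.06 over protein coding transcripts (0.824), and by 0.15 without EV replicate 1. PPM1D, the phosphatase WIP1 that removes activating phosphates from p53 and its kinases, had log2 fold changes between -0.03 and 0.08 in the 4 comparisons.

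MDM2 RNA can be split by where its transcripts start, because the gene has an upstream promoter and a downstream promoter that holds the p53 element printed above. The tables do not list the same MDM2 transcripts: a transcript of each of the 3 kinds below (MDM2-201, MDM2-211 and MDM2-229) stands in the knockdown tables only, and a coding transcript that starts upstream in the inhibitor table only, so the sums can be compared only within an experiment. The listed transcripts that start upstream summed to 15.9 and 16.6 FPKM under DMSO, 16.1 and 15.8 under EPZ, 13.7 and 11.99 with EV, 14.6 and 16.4 with WT, and 13.9 and 15.2 with K56A. Those that start at the downstream promoter, between 68808724 and 68809323 of chromosome 12, summed to 14.1 and 15.5 FPKM under DMSO, 16.3 and 23.3 under EPZ, 26.2 and 22.8 with EV, 25.9 and 25.4 with WT, and 27.5 and 24.8 with K56A. In the inhibitor experiment the upstream sum stayed between 15.8 and 16.6 FPKM. The high value of EPZ replicate 2 came with a high downstream sum and also with a high sum of transcripts that start further into the gene. Within the downstream sum, the coding transcript starting at 68809212 stood at 0.393 and 5.16 FPKM under DMSO and 5.12 and 10.4 under EPZ. Only the window given above assigns it to the downstream promoter. That starting at 68809002 overlapped (11.4 and 8.29 under DMSO, 9.64 and 11.7 under EPZ). That starting at 68809024 was lower under EPZ (2.26 and 1.74 against 0.61 and 0.53). A nonsense-mediated decay transcript was at most 0.915 FPKM in these libraries. Transcripts that start further into the gene summed to 0.283 and 5.23 FPKM under DMSO, 3.32 and 11.1 under EPZ, and 8.26 to 13.5 in the knockdown libraries. The sums are sums of estimates for transcripts that share exons, and within the knockdown experiment the downstream sums of the groups overlapped, while both WT and both K56A libraries had a higher upstream sum than both EV libraries.

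**Figure D4:**
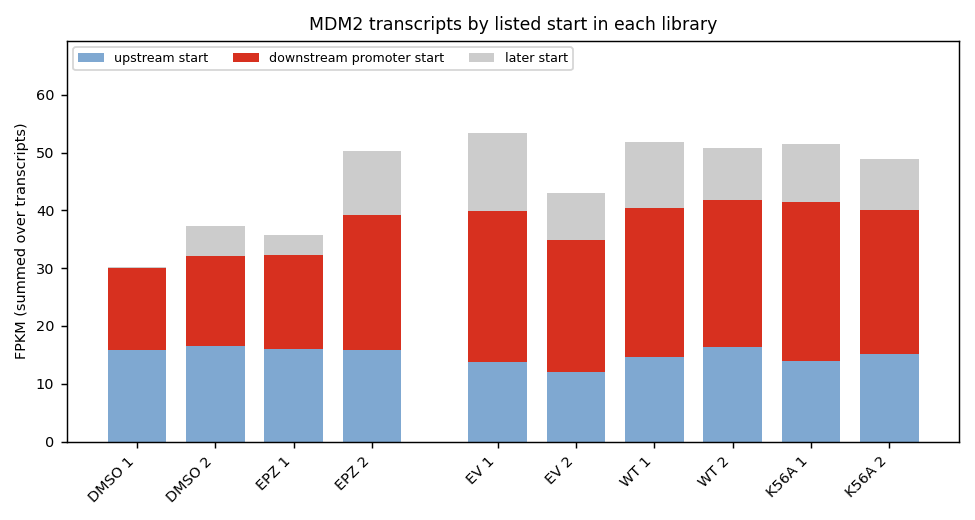
MDM2 FPKM in each library, stacked by where the listed transcripts start. The upstream part is 15.8 to 16.6 FPKM in the inhibitor libraries. Their downstream part and the part that starts further into the gene are both highest in EPZ replicate 2 (23.3 and 11.1 FPKM). The downstream part is 22.8 to 27.5 FPKM in the knockdown libraries, whose tables were normalized separately and list partly other transcripts.

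Of the genes for cell cycle arrest, CDKN1A (ENSG00000124762, chromosome 6, 36676460 to 36687337, GRCh38) did not pass in any comparison. It encodes p21, the inhibitor of cyclin-dependent kinases through which p53 halts cells in G1. Its levels were 144 and 124 FPKM under DMSO, 142 and 123 under EPZ, 85.5 and 93.1 with EV, 91.9 and 94.2 with WT, and 97.0 and 94.0 with K56A. The EPZ and DMSO values lay side by side, and both K56A libraries lay just above both EV libraries. Its log2 fold changes were -0.02 ± 0.12 under EPZ (adjusted p = 0.972), 0.06 ± 0.05 with WT against EV (0.664) and 0.10 ± 0.05 with K56A against EV (0.402). CDKN1A shares an exon with a gene on the opposite strand, as do MDM2, FBXW7 and POLH, and the strand setting of the counting is not given in the sources used here. MDM2 also shares an exon with 1 gene on the same strand. BTG2, an antiproliferative cofactor of mRNA deadenylation, had the narrowest range of the genes given by library. It stood at 14.7 and 14.3 FPKM under DMSO, 13.8 and 14.2 under EPZ, 13.5 and 13.6 with EV, 14.1 and 14.4 with WT, and 13.3 and 13.2 with K56A. The groups did not overlap, yet the log2 fold changes were only -0.05 ± 0.13 under EPZ, 0.07 ± 0.06 with WT and -0.03 ± 0.06 with K56A against EV, and -0.10 ± 0.06 with K56A against WT (adjusted p = 0.576).

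PLK2 (ENSG00000145632, chromosome 5, 58453982 to 58460086), a polo-like kinase that restrains the cell cycle under stress, had the largest fold change of the set in EPZ. It stood at 94.9 and 107 FPKM under DMSO and 135 and 164 under EPZ, so both EPZ libraries were higher. The difference was 0.56 ± 0.13 on the log2 scale, a ratio of means of 1.48, and it did not pass (adjusted p = 0.756). Leaving out a library gave 0.64 (DMSO replicate 2), 0.48 (DMSO replicate 1), 0.70 (EPZ replicate 1) and 0.42 (EPZ replicate 2). Protein coding transcripts alone gave 0.43 (adjusted p = 0.754). The coding transcript of PLK2 stood at 59.2 and 68.5 FPKM under DMSO and 83.6 and 88.5 under EPZ, and its 11 listed retained-intron transcripts together at 35.7 and 38.2 under DMSO and 51.0 and 75.4 under EPZ. Both kinds were higher in both EPZ libraries. In the knockdown experiment PLK2 stood at 79.9 and 75.8 FPKM with EV, 84.7 and 83.4 with WT and 84.96 and 82.4 with K56A, with differences from EV of 0.11 ± 0.04 and 0.10 ± 0.04 (adjusted p = 0.334 and 0.324). PLK3, its relative, had a log2 fold change of 0.22 ± 0.06 with K56A against EV in the fit that kept all genes (adjusted p = 0.208). That fit gave PLK3 0.07 ± 0.06 with WT against EV (0.719) and 0.15 ± 0.06 with K56A against WT (0.398). Under EPZ PLK3 had 0.08 ± 0.13 (adjusted p = 0.887).

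GADD45A was the member that passed, in K56A against EV. It encodes a small protein that p53 induces after DNA damage and that binds PCNA and CDK1 and activates stress kinases. Its summed level was 40.3 and 41.9 FPKM with EV, 49.9 and 56.9 with WT and 60.4 and 54.8 with K56A, next to 35.3 and 45.8 under DMSO and 42.6 and 48.4 under EPZ. Both WT and both K56A libraries lay above both EV libraries, and WT and K56A overlapped. On the log2 scale K56A exceeded EV by 0.48 ± 0.07 (adjusted p = 0.0342), a ratio of means of 1.40. WT exceeded EV by 0.37 ± 0.07, which did not pass (adjusted p = 0.0827, but 0.0396 with a minimum of 5 FPKM), and K56A against WT gave 0.11 ± 0.07 (adjusted p = 0.589). The difference between EPZ and DMSO was 0.17 ± 0.15 (adjusted p = 0.778). The call in K56A was lost when EV replicate 1 (adjusted p = 0.149), EV replicate 2 (0.0821), K56A replicate 1 (0.208) or K56A replicate 2 (0.124) was left out, with a replicate block (0.0567), without the level filter (0.0631), without the intensity trend (0.265), in the K56A table alone (0.0565) and over protein coding transcripts alone (0.40 ± 0.07, 0.0615).

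The GADD45A difference lay largely in 1 coding transcript, GADD45A-205. It stood at 1.74 and 1.42 FPKM with EV, 12.6 and 13.7 with WT and 12.1 and 13.9 with K56A. In the inhibitor experiment both DMSO libraries listed it at 0, and the EPZ libraries at 1.61 and 14.0 FPKM. All 4 WT and K56A libraries were above 12 FPKM, while the EPZ libraries differed from each other about as widely as EV from WT. In the authors' deposited tables the transcript was called higher in WT and in K56A (log2 fold changes of 3.04 and 3.01 over EV, adjusted p = 3.17e-32 and 2.83e-30) and in EPZ (adjusted p = 0.000197). Those tables called 3.33% of all transcripts in WT, 3.8% in K56A and 1.19% in EPZ. GADD45A-202, the main transcript, stood at 28.4 and 37.7 FPKM under DMSO, 30.6 and 25.3 under EPZ, 28.5 and 28.8 with EV, 24.3 and 25.9 with WT, and 27.0 and 27.5 with K56A. It was somewhat lower, not higher, in WT and K56A than in EV. Together, GADD45A-202 and GADD45A-205 stood at 30.25 and 30.23 FPKM with EV, 36.9 and 39.7 with WT, and 39.1 and 41.5 with K56A. The pair was thus higher in all WT and K56A libraries than in EV. Under DMSO the pair stood at 28.4 and 37.7 FPKM and under EPZ at 32.2 and 39.35, which overlapped. How fragments were divided between these transcripts was not tested. Without GADD45A-205, an alternative chosen after seeing the data, the gene stood at 38.5 and 40.5 FPKM with EV, 37.3 and 43.1 with WT and 48.2 and 40.8 with K56A. The difference was then 0.17 ± 0.09 for K56A (adjusted p = 0.436) and 0.02 for WT over EV, and EPZ stood at -0.10 against DMSO.

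The transcripts differ at the start of exon 3, which is why the junctions are shown. GADD45A (ENSG00000116717) lies on the plus strand of chromosome 1, from 67685201 to 67688334 in the deposited tables (GRCh38). In GENCODE 29, exon 3 starts at 67686350 in GADD45A-202 and at 67686404 in GADD45A-205, and exon 2 ends at 67686126 in both. In the lines below, from the GENCODE 29 transcripts, lower case marks the last 15 bases of exon 2 and capitals the first 15 of exon 3.
GADD45A-202: caagctgctcaacgtCGACCCCGATAACGT
GADD45A-205: caagctgctcaacgtAGATGTGGCTCTGCA
The 54 coding bases that GADD45A-205 leaves out run over chr1:67686350-67686403.
GADD45A-202 only: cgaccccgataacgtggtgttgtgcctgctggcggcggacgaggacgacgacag
Because 54 is a multiple of 3, the reading frame is kept, with a coding sequence of 495 bases before the stop in GADD45A-202 and 441 in GADD45A-205. The deposited tables place GADD45A-205 from 67685405 to 67688333, as GENCODE 29 does, and GADD45A-202 from 67685201 to 67688334, where GENCODE 29 has 67685061 to 67688338, so the authors' annotation differs from this release there. The reads behind these junctions were not analysed here, and the FPKM of transcripts that share nearly all of their exons are estimates. No other gene shares an exon with GADD45A in GENCODE 29.

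**Figure D5:**
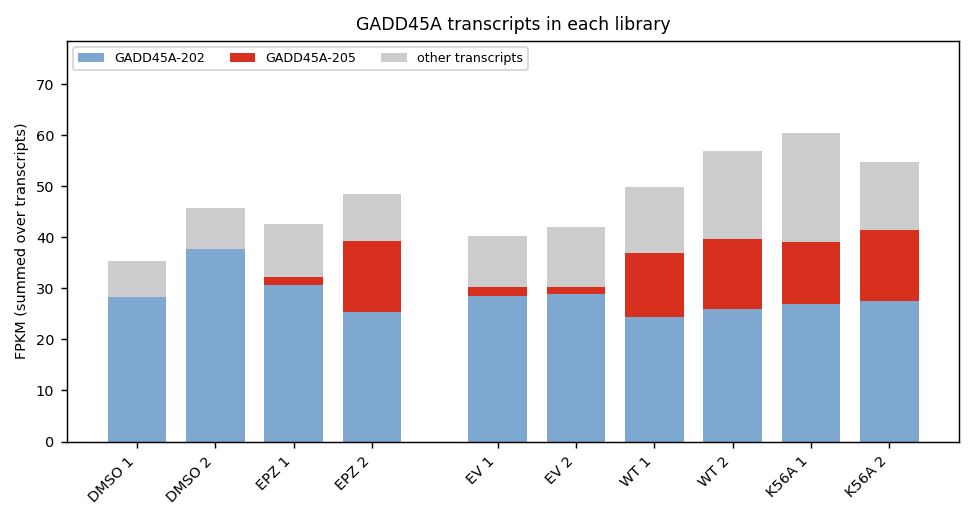
GADD45A FPKM in each library, stacked by transcript. GADD45A-205 (red) is listed at 0 in DMSO, and stands at 1.42 to 1.74 FPKM with EV and at 12.1 to 13.9 FPKM with WT and K56A, while GADD45A-202 (blue) lies between 24.3 and 28.8 FPKM in the knockdown libraries.

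The 3 genes for DNA repair and nucleotide supply did not pass in any comparison. DDB2, the damage sensor of nucleotide excision repair whose window holds the consensus match without departures, stood at 21.4 and 21.5 FPKM under DMSO, 21.01 and 24.2 under EPZ, 42.6 and 40.5 with EV, 42.4 and 46.1 with WT, and 41.4 and 42.3 with K56A. Its groups overlapped except that both K56A libraries lay just below both WT libraries, and WT against EV gave 0.09 ± 0.06 (adjusted p = 0.559), or 0.01 over protein coding transcripts. POLH, the polymerase that copies past ultraviolet lesions, stood at 7.56 and 8.29 FPKM under DMSO, 7.92 and 9.12 under EPZ and 7.80 to 8.86 in the 6 knockdown libraries. It overlapped in all comparisons, with 0.10 ± 0.15 under EPZ (adjusted p = 0.876). RRM2B, the p53-dependent subunit of ribonucleotide reductase, stood at 12.7 and 12.6 FPKM with EV, 11.96 and 11.95 with WT and 10.5 and 11.6 with K56A, and at 25.1 to 31.8 in the inhibitor experiment. Both K56A libraries were below all EV and WT libraries. The differences were -0.18 ± 0.07 from EV (adjusted p = 0.300) and -0.11 ± 0.07 from WT (0.604).

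Of the 7 genes for metabolism and redox, none passed. SAT1 (ENSG00000130066, chromosome X, 23783173 to 23786226) stood at 193 and 214 FPKM under DMSO and 266 and 288 under EPZ, so both EPZ libraries were higher. The difference was 0.44 ± 0.11, a ratio of means of 1.36 (adjusted p = 0.756). Leaving out a library gave 0.52 (DMSO replicate 2), 0.37 (DMSO replicate 1), 0.50 (EPZ replicate 1) and 0.39 (EPZ replicate 2). Protein coding transcripts alone gave 0.38 (adjusted p = 0.754). The coding transcripts of SAT1 summed to 121 and 130 FPKM under DMSO and 159 and 169 under EPZ. Its processed transcripts summed to 72.4 and 84.1 under DMSO and 107 and 119 under EPZ. In the knockdown experiment SAT1 stood at 491 and 461 FPKM with EV, 509 and 512 with WT and 451 and 463 with K56A. The WT libraries were the highest, by 0.10 ± 0.04 over EV (adjusted p = 0.276, but by 0.01 over protein coding transcripts), and K56A against WT gave -0.16 ± 0.04 (adjusted p = 0.159). PANK1, which makes coenzyme A, had a log2 fold change of 0.47 ± 0.19 under EPZ. There FDXR, which passes electrons to ferredoxin, had -0.29 ± 0.14, and TP53I3, a quinone oxidoreductase, had 0.28 ± 0.16. Each of these had an adjusted p of 0.756. In the knockdown comparisons FDXR had log2 fold changes between -0.09 and 0.18 and TP53I3 between -0.07 and 0.19. In the fit that kept all genes, PANK1 had 0.17 ± 0.13 with WT against EV (adjusted p = 0.653). With K56A it had -0.14 ± 0.13 against EV (0.673, and -0.04 in the K56A table alone) and -0.31 ± 0.13 against WT (0.392). SESN1, TIGAR and CMBL had fold changes between -0.13 and 0.10 in the 4 comparisons.

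The genes for cell death, survival and autophagy gave 0 members that passed of 10 tested in EPZ and 7 in the knockdown comparisons. PERP (ENSG00000112378, chromosome 6, 138088505 to 138107419), a membrane protein of desmosomes and of p53-dependent apoptosis, stood at 59.8 and 67.9 FPKM under DMSO, 74.0 and 79.6 under EPZ, 62.1 and 57.3 with EV, 51.4 and 52.1 with WT, and 50.9 and 48.5 with K56A. Both EPZ libraries were above DMSO, and all WT and K56A libraries were below EV. The fold changes were 0.27 ± 0.12 under EPZ (adjusted p = 0.756), -0.20 ± 0.05 with WT (0.159) and -0.26 ± 0.05 in K56A (0.0836, but 0.0432 with a minimum of 5 FPKM) against EV. PERP has a single listed transcript, and in the authors' deposited tables it was called lower in WT (log2 fold change of -0.22, adjusted p = 0.00644) and in K56A (-0.30, adjusted p = 5.41e-05). RPS27L, a ribosomal protein paralog that p53 induces, stood at 32.9 and 28.4 FPKM with EV, 39.7 and 37.5 with WT and 35.9 and 35.0 with K56A, with 55.2 and 54.8 under DMSO and 50.7 and 61.5 under EPZ. WT and K56A lay above EV, by 0.33 ± 0.07 (adjusted p = 0.104) and 0.21 ± 0.07 (0.247). Whether the authors' counting split reads between RPS27L and its near copy RPS27 was not tested. AEN, an exonuclease of apoptosis, stood at 19.7 and 18.5 FPKM under DMSO, 16.2 and 15.6 under EPZ, 24.3 and 23.9 with EV, 23.0 and 24.2 with WT, and 25.9 and 26.0 with K56A. Its EPZ libraries lay below DMSO by a log2 fold change of -0.25 ± 0.13 (adjusted p = 0.756), and K56A lay above WT by 0.13 ± 0.05 (adjusted p = 0.359). TP53INP1, a promoter of autophagy and cell death, stood at 6.59 and 8.501 FPKM under DMSO and 8.54 and 9.37 under EPZ, with a difference of 0.24 ± 0.17 (adjusted p = 0.756), and between -0.08 and 0.13 in the knockdown comparisons. TRIAP1, an inhibitor of apoptosis, had log2 fold changes between -0.13 and 0.12 in the 4 comparisons, DRAM1, a lysosomal membrane protein of autophagy, between -0.05 and 0.10, and TNFAIP8, a regulator of cell survival, between -0.21 and -0.04. CYFIP2 and TP53I11 had -0.17 and -0.14 under EPZ, and between -0.08 and 0.09 in the knockdown fit that kept all genes. PHLDA3, an inhibitor of AKT signalling, had the lowest fold change of all members in EPZ, with 24.2 and 15.7 FPKM under DMSO against 14.6 and 14.1 under EPZ, a log2 fold change of -0.43 ± 0.20 (adjusted p = 0.756). DMSO replicate 1 alone was high. In the knockdown fit that kept all genes PHLDA3 had log2 fold changes between -0.03 and 0.08.

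Of the remaining genes, GDF15, a secreted stress cytokine of the TGF-beta family, stood at 75.5 and 70.5 FPKM under DMSO, 65.0 and 51.1 under EPZ, 135 and 133 with EV, 125 and 125 with WT, and 154 and 133 with K56A. EPZ lay below DMSO, and K56A above WT. The differences were -0.34 ± 0.14 under EPZ (adjusted p = 0.756, -0.17 without EPZ replicate 2 and -0.51 without EPZ replicate 1), -0.10 ± 0.06 with WT and 0.10 ± 0.06 with K56A against EV (0.546 and 0.503), and 0.20 ± 0.06 with K56A against WT (0.256, and 0.09 without K56A replicate 1). ZMAT3, an RNA-binding regulator of splicing, stood at 4.13 and 4.36 FPKM with EV, 3.76 and 4.49 with WT and 3.52 and 3.53 with K56A, with 2.98 to 3.66 in the inhibitor experiment. K56A was below EV by a log2 fold change of -0.24 ± 0.12 (adjusted p = 0.384). ANKRA2, an ankyrin repeat protein, and SUSD6, a membrane protein, had fold changes between -0.20 and 0.14.

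Lists of genes around the set held no gene that passed. A list of 35 other p53 target genes outside the set, such as BAX, FAS and SESN2, had 28 members tested in EPZ and 25 in the knockdown comparisons, of which 0 passed in any of the 4. Their median log2 fold changes were -0.11 under EPZ, -0.01 with WT and 0.04 with K56A against EV, and 0.06 with K56A against WT, where 16 of the 25 were above 0. The last is opposite in sign to the median of the 36-gene set (-0.06), and the difference between the lists was not tested. Unadjusted p-values under 0.05 numbered 2 of 28 under EPZ (5.83% of all genes), 7 of 25 with WT (13.5% of all genes), 3 of them higher, 8 of 25 with K56A against EV (15.1%), 5 of them higher, and 4 of 25 with K56A against WT (13.0%). The 20 cell cycle genes that p53 is known to lower through p21 and the DREAM complex, such as CCNB1, CDK1 and FOXM1, had 20 members tested in EPZ and 19 in the knockdown comparisons, of which 0 passed. Their medians were 0.01, 0.01, 0.02 and 0.01 in the same order, and an unadjusted p under 0.05 was reached by 1, 2, 3 and 1 of them.

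Levels in EV can be set beside DMSO only as a description, because the tables were normalized separately and the experiments share no library. Mitochondrial transcripts held 17.3% and 17.6% of FPKM in DMSO and 27.9% and 27.5% in EV. FPKM are relative values, and the part of that gap in the ratios below was not tested. The ratio of mean FPKM in EV over DMSO had a median of 0.933 over 33 members and 0.872 over 12797 genes. SAT1 (2.34), DDB2 (1.94) and GDF15 (1.83) were more than 1.5 times higher in EV, 3 of 33 members, where 18.1% of all genes were. Ratios more than 1.5 times lower were found for 10 members, where 30.4% of all genes had one. Those members were TP53I11 (0.408), RRM2B (0.452), PPM1D (0.549), CCNG1 (0.552), RPS27L (0.557), PHLDA3 (0.562), TIGAR (0.565), CMBL (0.592), CYFIP2 (0.601) and CDKN1A (0.665). The EV sums leave out transcripts listed in only 1 knockdown table, which can lower a ratio. Such transcripts held up to 6.14% of FPKM for TP53I11, 5.31% for PHLDA3 and 7.54% for CYFIP2.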

How the data were processed

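The authors deposited FPKM per transcript in 3 tables of 4 libraries, which pair DMSO with EPZ, EV with WT, and EV with K56A. The submitters' processing notes name genome build GRCh38 and, without roles, STAR 2.7.1a, Trim Galore 0.6.6, DESeq2 1.32.0 and RSEM 1.3.3. Which annotation release and strand setting were used is not given in the sources used here. The deposited tables also hold, for each transcript, log2 fold changes and p-values before and after adjustment, which were made with edgeR (inhibitor) and DESeq2 (knockdown) per the file headers and are quoted only where named. Another 4 columns of summary values were left unused.

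FPKM were summed per gene. The 6 knockdown libraries were joined over the 69086 transcripts in both tables, with the K56A libraries multiplied by 1.000661, the factor by which the EV libraries differ between the tables. Genes with over 5% of FPKM in transcripts of 1 table were left out (2284 of 13850). Values of log2(FPKM + 0.5) were fitted with limma 3.58.1 under R 4.3.3, using an intensity trend and group means as the only terms, for EPZ and DMSO in 1 fit and for the knockdown groups in another. Tests were two-sided and adjusted by Benjamini-Hochberg over all genes tested, and the fit was tested on simulated data. This scale understates changes of low genes. An exact permutation test of 2 against 2 libraries cannot go below p = 0.333. Python 3.11.15 with pandas 2.3.3, numpy 2.4.6 and, for plots, matplotlib 3.10.9 was used. Members, roles and lists were chosen with earlier results of these data known. Genes are given by library if they passed or were CDKN1A, MDM2, GDF15, BTG2 or GADD45A. So are those with the smallest p of their role in a comparison. Other tested members are given by their fold changes or the range of these, and TRIM22 by the range of its levels. PHLDA3 in EPZ and the transcripts of MDM2, PLK2, SAT1 and GADD45A were picked after their values were seen. Of the 34 listed members, 13 share an exon with a gene on the opposite strand and 5 with one on the same strand in GENCODE 29. Values of 1 gene and 1 list that the rule names are not reported here.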

Additional observations from a re-analysis of the deposited data

How the results depend on the processing

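The counts of members that passed were recomputed with other pseudocounts, level filters, scalings, transcript sets and fits, and with each library left out, where the lone library of a group is assumed to vary like the others. In EPZ versus DMSO the count was 0 to 5 with a library left out, the 5 without DMSO replicate 2, and 0 under the other settings. WT versus EV gave 1 (GADD45A) with a minimum of 5 FPKM and 0 otherwise. K56A versus EV gave 2 (GADD45A and PERP) with a minimum of 5 FPKM, and 0 without a level filter, without the intensity trend, over protein coding transcripts, in its own table alone, without GADD45A-205 and with each of the EV and K56A libraries left out in turn. K56A versus WT gave 0 throughout. Where the cause is not given by the setting itself, it was not tested.

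Fold changes were followed across settings for CDKN1A, MDM2, GDF15, BTG2, GADD45A and the member with the smallest p of each role in a comparison. Among these, small fold changes changed sign in 10 cases, most of them with a library left out. Sign changes of the other members were not counted. CDKN1A in EPZ was 0.089 without DMSO replicate 1 and 0.084 without EPZ replicate 2, in a range of -0.13 to 0.089. GADD45A in EPZ ran from -0.011 (without DMSO replicate 1) to 0.36 and was -0.097 without GADD45A-205, and POLH in EPZ ran from -0.0002 (without EPZ replicate 2) to 0.19. In WT versus EV, CDKN1A ran from -0.0006 (without EV replicate 1) to 0.12 and MDM2 from -0.054 (without EV replicate 2) to 0.25. In K56A versus EV, MDM2 ran from -0.087 (without EV replicate 2) to 0.22 and GDF15 from -0.0059 (without K56A replicate 1) to 0.20. MDM2 in K56A versus WT ran from -0.068 to 0.0017 (without K56A replicate 2).

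With a replicate block the count of members was 0 in each of the 4 comparisons, since GADD45A in K56A versus EV had an adjusted p of 0.0567. Among all genes 0 rose and 2 fell with the block in EPZ, 9 and 37 in WT and 10 and 43 in K56A versus EV, and 0 and 3 in K56A versus WT. Replicate differences of same-numbered libraries correlated across genes at 0.245 between DMSO and EPZ and at 0.033, -0.015 and -0.033 between knockdown groups. In EPZ the block narrowed the standard error of PLK2 from 0.13 to 0.07 (adjusted p = 0.107) and of CDKN1A from 0.12 to 0.06. The labels tie no number to a shared culture or day, and whether the inhibitor libraries were paired was not established. Counts over all genes also moved with a minimum of 5 FPKM (27 and 122 in WT, 54 and 132 in K56A versus EV) and without the trend (1 and 0, 2 and 2). Depth limits are unknown without counts, and 2 libraries a group limit every test.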

Other observations

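Single transcripts of the members were also called in the authors' deposited tables, which give log2 fold changes and adjusted p-values per transcript. The calls at an adjusted p under 0.05 numbered 2 of 151 listed member transcripts in EPZ (where 1.19% of all transcripts were called), 7 of 171 in WT (4.09%, against 3.33%) and 5 of 176 in K56A over EV (2.84%, against 3.8%). Besides GADD45A-205 and the only transcript of PERP, FDXR-204, a coding transcript of ferredoxin reductase, was listed at 0 in both EV libraries, at 0.897 and 1.78 FPKM in WT and at 1.52 and 0.938 in K56A. SAT1-205, a processed transcript, stood at 28.9 and 25.2 FPKM in EV and 46.0 and 47.2 in WT (log2 fold change of 0.77, adjusted p = 4.48e-08). RPS27L-202, the leading coding transcript of its gene, stood at 13.4 and 14.4 FPKM in EV and 23.8 and 20.9 in WT (0.67, adjusted p = 0.0136). MDM2-204, of the nonsense-mediated decay class, stood at 2.56 and 2.20 FPKM in EV and 4.04 and 5.81 in WT (1.03, adjusted p = 0.046). MDM2-211, which starts at the downstream promoter, stood at 1.63 and 0.827 FPKM in EV and 4.05 and 4.19 in K56A (1.72, adjusted p = 0.0211). GADD45A-203, a retained-intron transcript, stood at 4.33 and 3.95 FPKM in EV and 8.65 and 7.57 in K56A (0.93, adjusted p = 0.00379). CYFIP2-210, of a partner of the fragile X protein, stood at 1.61 and 2.11 FPKM in EV and 3.32 and 3.44 in WT (0.84, adjusted p = 0.0141). TP53I11-203 was at 1.10 and 0.310 FPKM in DMSO and listed at 0 in both EPZ libraries (adjusted p = 0.0141). The authors' calls over all transcripts lay at 0 in both libraries of a group in 651 of 752 cases in the inhibitor table. Such cases were 1212 of 2419 in WT against EV and 1248 of 2841 in K56A against EV.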
